A study of Homo sapiens with 10 samples.

Results

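The dorsal (d16D) cultures of a human neural differentiation were set against the cultures they came after, at day 10 (d10), in 2 lines derived from H9, an established line of human embryonic stem cells. V1PAKI carries the genotype labelled SOX1-OT V1 PAKI, and Ctrl is wild type. The 4 libraries, V1PAKI d16D, Ctrl d16D, V1PAKI d10 and Ctrl d10, are 4 of the 10 bulk RNA libraries of the series, which also hold d0, d4 and a ventral arm (d16V) of each line. They were chosen by their stage labels, and the genes described are the 14195 of 42335 gene symbols with at least 1 FPKM in at least 2 of the 4 libraries. FPKM is a fragment count scaled by transcript length and library total. All 4 cultures share the same protocol up to day 10: embryoid bodies grown in suspension, a neural medium from day 4, and attachment of the bodies to a dish on day 7. Only the protocol for ventral telencephalon adds Sonic hedgehog and the hedgehog agonist SAG, from day 10. What PAKI and the letters D and V stand for is not written in the labels, which give no separate protocol for d16D. They name the d16 samples neural progenitors derived from embryonic stem cells. Each line has 1 library per stage, so the error of a change is the disagreement between lines and stages, not between repeated cultures. These are bulk cultures, in which fewer cells of a type and less RNA per cell cannot be told apart.

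Between these days an embryoid culture passes from early neuroectoderm towards regional forebrain progenitors and the first neurons. Without hedgehog ligand, human neuroectoderm tends towards the pallium, the dorsal telencephalon, whose medial edge (the cortical hem) is a source of WNT and BMP signals. Progenitors are held back from differentiation by Notch signalling between neighbours, and proneural factors drive their exit towards neurons, while factors of the pluripotent state are shut down.

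The changes that passed the test, all common to both lines, included rises of the pallial regulators FEZF2, DMRTA1 and NR2F1, the progenitor factors SOX1 and SOX3, the Notch genes HES5 and JAG1, and the neurofilament gene NEFM, each of which reached 1 FPKM at d10 in at least 1 line. Proneural and hem genes were among the rises too, most of them from levels under 1 FPKM in both d10 libraries. Among the genes that fell were 5 of 21 pluripotency genes, 3 of 19 targets of the YAP and TEAD proteins, and 2 of 16 genes of cardiac and smooth muscle. Changes are differences of log2(FPKM + 1), d16D minus d10, and "rose" or "fell" is used where limma's p, adjusted over all 14195 genes by the Benjamini-Hochberg method, was under 0.05. By this rule 88 genes rose, 0.620% of those tested, and 62 fell, 0.437%. All 150 moved the same way in both lines, and their changes ranged from 1.04 to 7.79 log2 units in size. The error of the test comes from the disagreement between lines. The test thus favoured genes whose lines moved alike and whose libraries did not overlap between the days. A shared direction or a lack of overlap in called genes is therefore a description. The share of genes without overlap among all genes tested was not counted. At an unadjusted p under 0.05 there were 1343 genes higher and 1086 lower. Of the 88, 45 had at least 1 FPKM in both d16D libraries and less in both d10 libraries, so they passed the filter through d16D alone, as did 514 genes in all. Likewise 16 of the 62 passed it through d10 alone, as did 212 genes in all. Without the test, 243 genes (1.71%) were higher by at least 1 log2 unit in both lines and 139 (0.979%) were lower by as much in both.

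The number of calls depends on single libraries: 340 genes were called with V1PAKI d16D left out, 96 with Ctrl d16D, 30 with V1PAKI d10 and 29 with Ctrl d10 left out. None of the 150 changed sign in any of these fits, which is a description, since the test favoured genes whose lines moved alike. With a trend on GC content and length removed the balance turned to 153 higher and 198 lower. Among protein-coding genes alone it was 77 higher and 33 lower, beside 73 and 40 protein-coding genes in the main fit. That setting also rescaled each library to its summed protein-coding FPKM without mitochondrially encoded genes. FPKM sums ranged from 210547 to 230767 over the 4 libraries and 10361 to 13444 genes were listed at 0. Sequencing depth is unknown, so no counting interval is given, and a listed 0 can be a failed estimate.

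**Figure D1:**
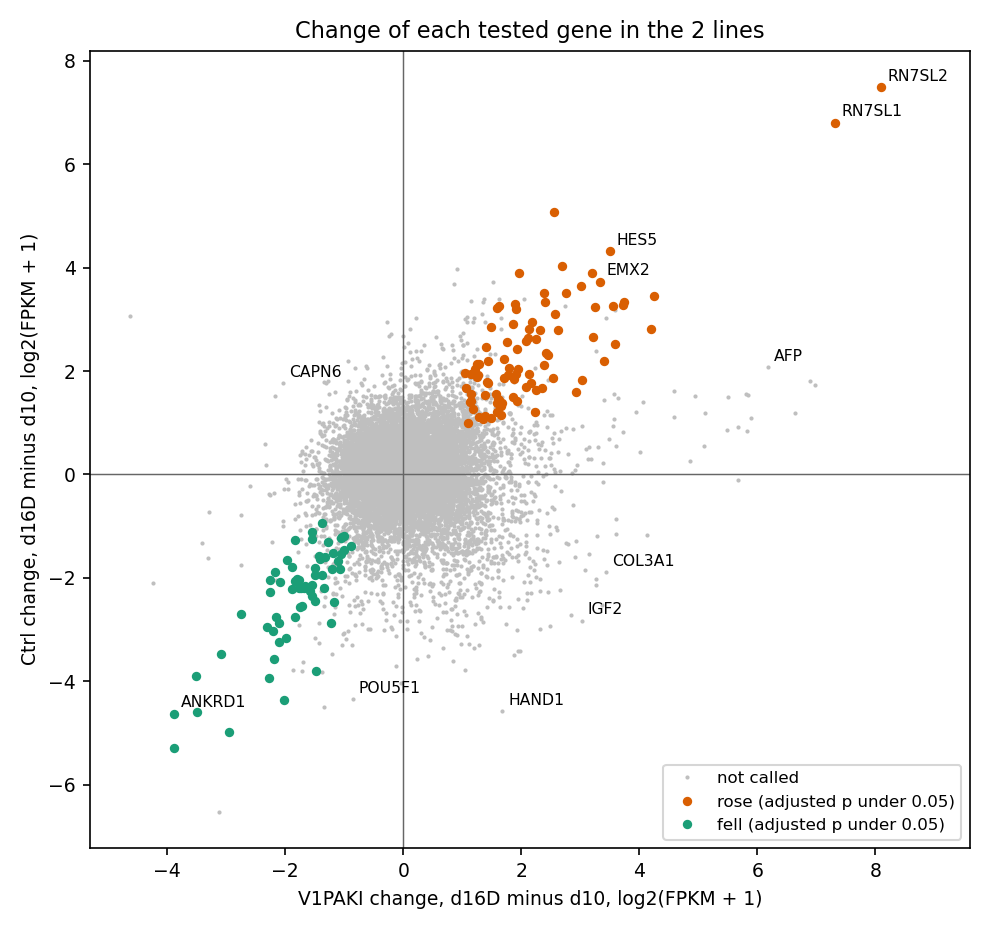
Change of each of the 14195 tested genes, d16D minus d10 on log2(FPKM + 1), in V1PAKI (horizontal) and in Ctrl (vertical). Each point is 1 gene; the 88 genes that rose and the 62 that fell lie in the quadrants where both lines move the same way, while COL3A1, IGF2 and HAND1 were higher at d16D in V1PAKI and lower in Ctrl.

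V1PAKI d16D and Ctrl d10 were the 2 libraries with the highest sums in the mesenchyme, mesoderm and amnion lists, while the endoderm and muscle lists had other orders. Summed over 21 mesenchymal markers such as the collagens, the level was 1958 FPKM in V1PAKI and 436 FPKM in Ctrl at d16D, against 440.0 FPKM in V1PAKI and 1624 FPKM in Ctrl at d10. The 14 mesoderm markers summed to 179 FPKM in V1PAKI and 22.6 FPKM in Ctrl at d16D, against 50.2 FPKM in V1PAKI and 269 FPKM in Ctrl at d10. Over 21 markers of endoderm and liver the sum was 4292 FPKM in V1PAKI and 721 FPKM in Ctrl at d16D, against 57.3 FPKM in V1PAKI and 333 FPKM in Ctrl at d10. Thus V1PAKI was the higher line in all 3 lists at d16D and the lower line in all 3 at d10. For 21 cardiac and smooth muscle markers the sums were 236 FPKM in V1PAKI and 30.3 FPKM in Ctrl at d16D, against 292 FPKM in V1PAKI and 735 FPKM in Ctrl at d10, and for 20 amnion and trophoblast markers 285 FPKM in V1PAKI and 60.6 FPKM in Ctrl at d16D, against 181 FPKM in V1PAKI and 567 FPKM in Ctrl at d10. The mesoderm, muscle and amnion sums are not separate, since HAND1 belongs to all of these lists and made up much of the mesoderm sum. It had 134 FPKM in V1PAKI and 8.41 FPKM in Ctrl at d16D, against 41.4 FPKM in V1PAKI and 223 FPKM in Ctrl at d10. The part of cells of these types in the changes below was not tested, apart from the values within each line, which are given throughout.

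Regulators of the pallium rose in 7 of the 17 cases tested, from a list of 21 dorsal telencephalic factors, and the median change of the 17 was 1.53 (1.79 in V1PAKI and 1.53 in Ctrl), beside 0.023 (-0.0045 in V1PAKI and 0.072 in Ctrl) over all genes tested. Of the 7, 4 (EMX2, NR2E1, DMRTA2 and DMRT3) had passed the filter through d16D alone, so that their direction was fixed by the filter; at a filter of 5 FPKM 3 of 15 rose. The number that rose was 8 with V1PAKI d16D left out, 7 with Ctrl d16D, 3 with V1PAKI d10 and 4 with Ctrl d10 left out. EMX2, a homeobox factor that patterns the medial cortex, lies at chr10:117542444-117549546 (GRCh38) and stood at 12.3 FPKM in V1PAKI and 24.2 FPKM in Ctrl at d16D, against 0.317 FPKM in V1PAKI and 0.897 FPKM in Ctrl at d10. Both d16D libraries thus lay far above both d10 libraries (log2 change 3.53, SE 0.27, adjusted p = 0.00372). FEZF2, a zinc finger factor of forebrain progenitors and deep-layer cortical neurons, behaved alike across lines, at 14.3 FPKM in V1PAKI and 18.2 FPKM in Ctrl at d16D, against 0.302 FPKM in V1PAKI and 1.02 FPKM in Ctrl at d10 (log2 change 3.41, SE 0.23, adjusted p = 0.00332). NR2E1 (TLX), a nuclear receptor that keeps neural stem cells dividing, was at 6.29 FPKM in V1PAKI and 16.3 FPKM in Ctrl at d16D, against 0.133 FPKM in V1PAKI and 0.0549 FPKM in Ctrl at d10 (log2 change 3.36, SE 0.34, adjusted p = 0.00796).

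The doublesex-related factors DMRTA2, DMRT3 and DMRTA1, known from mouse as regulators of the medial pallium, rose together. DMRTA2 had 14.2 FPKM in V1PAKI and 9.62 FPKM in Ctrl at d16D, against 0.262 FPKM in V1PAKI and 0.859 FPKM in Ctrl at d10 (log2 change 3.05, SE 0.29, adjusted p = 0.00755). DMRT3 had 3.66 FPKM in V1PAKI and 3.54 FPKM in Ctrl at d16D, against 0.0590 FPKM in V1PAKI and 0.172 FPKM in Ctrl at d10 (log2 change 2.04, SE 0.21, adjusted p = 0.00796). DMRTA1 was present earlier, with 5.35 FPKM in V1PAKI and 4.59 FPKM in Ctrl at d16D, against 1.06 FPKM in V1PAKI and 1.06 FPKM in Ctrl at d10 (log2 change 1.53, SE 0.21, adjusted p = 0.0202). In these 3 genes V1PAKI matched or exceeded Ctrl at d16D, unlike in EMX2 and NR2E1. NR2F1 (COUP-TFI), a nuclear receptor of caudal cortical identity, was the most abundant of the 7, at 43.9 FPKM in V1PAKI and 36.01 FPKM in Ctrl at d16D, against 7.56 FPKM in V1PAKI and 7.52 FPKM in Ctrl at d10 (log2 change 2.25, SE 0.20, adjusted p = 0.00527).

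Several pallial factors did not pass, and in some of them the lines differed widely. EMX1 and TBR1, markers of cortical progenitors and of early cortical neurons, were below the filter, since 1 library alone reached 1 FPKM; they, LHX2 and PAX6 were picked from the list after their values were seen. EMX1 was at 0.154 FPKM in V1PAKI and 2.74 FPKM in Ctrl at d16D, against 0.201 FPKM in V1PAKI and 0.425 FPKM in Ctrl at d10. TBR1 was at 0.476 FPKM in V1PAKI and 2.81 FPKM in Ctrl at d16D, against 0.00904 FPKM in V1PAKI and 0.0124 FPKM in Ctrl at d10. LHX2, a selector of cortex against hem, had 22.6 FPKM in V1PAKI and 99.5 FPKM in Ctrl at d16D, against 44.3 FPKM in V1PAKI and 27.8 FPKM in Ctrl at d10 (adjusted p = 0.757), higher at d16D in Ctrl and lower in V1PAKI. PAX6 had 6.24 FPKM in V1PAKI and 8.398 FPKM in Ctrl at d16D, against 2.31 FPKM in V1PAKI and 2.26 FPKM in Ctrl at d10, with no overlap between days, but missed the threshold (adjusted p = 0.0688).

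Levels at d16D were set beside those of the ventral arm for genes of dorsal and ventral identity. NKX2-1, the homeobox factor of the medial ganglionic eminence and hypothalamus, stood at 0.0826 FPKM in V1PAKI and 0.0145 FPKM in Ctrl at d16D, and at 44.8 FPKM in V1PAKI and 67.5 FPKM in Ctrl at d16V. PTCH1, a receptor and target of the hedgehog pathway, had 8.04 FPKM in V1PAKI and 5.56 FPKM in Ctrl at d16D, against 9.69 FPKM in V1PAKI and 6.08 FPKM in Ctrl at d10 (adjusted p = 0.753), and reached 73.2 FPKM in V1PAKI and 65.3 FPKM in Ctrl at d16V. EMX2 showed the opposite order, with 12.3 FPKM in V1PAKI and 24.2 FPKM in Ctrl at d16D and 1.40 FPKM in V1PAKI and 1.64 FPKM in Ctrl at d16V. GLI1, another hedgehog target, was at 2.86 FPKM in V1PAKI and 0.588 FPKM in Ctrl at d16D, against 1.83 FPKM in V1PAKI and 2.55 FPKM in Ctrl at d10 (adjusted p = 0.684). Of 20 ventral telencephalic and hedgehog genes, 11 were under 1 FPKM in all 4 libraries and 5 could be tested; limma called none, and 1 of the 5 was higher at an unadjusted p under 0.05. limma called 1 of the 5 higher with V1PAKI d16D left out. Factors of the ganglionic eminence were high in 1 of the d16D libraries. GSX2, which specifies the lateral eminence, stood at 0.130 FPKM in V1PAKI and 9.16 FPKM in Ctrl at d16D, against 0.0224 FPKM in V1PAKI and a listed 0 in Ctrl at d10, and at 0.809 FPKM in V1PAKI and 0.924 FPKM in Ctrl at d16V. DLX1 and DLX2 are homeobox factors of inhibitory neuron precursors. DLX1 had 0.882 FPKM in V1PAKI and 16.2 FPKM in Ctrl at d16D, against 0.0202 FPKM in V1PAKI and 0.187 FPKM in Ctrl at d10, and 4.10 FPKM in V1PAKI and 6.62 FPKM in Ctrl at d16V. DLX2 had 1.96 FPKM in V1PAKI and 12.1 FPKM in Ctrl at d16D, against 0.171 FPKM in V1PAKI and 0.530 FPKM in Ctrl at d10 (adjusted p = 0.0849), and 3.15 FPKM in V1PAKI and 5.05 FPKM in Ctrl at d16V. In these 3 genes Ctrl d16D was the highest of the 4 libraries. Between the arms the lines differed: all 3 genes were higher at d16D than at d16V in Ctrl, and lower in V1PAKI. They too were picked after their values were seen.

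Genes of the cortical hem and roof plate rose in 3 of 18 cases, with a median change of 0.54 (1.70 in V1PAKI and 0.089 in Ctrl). The filter was passed through d16D alone by 5 of the 18, WNT8B and LMX1A among them, and at a filter of 5 FPKM 0 of 11 rose. WNT8B, a WNT ligand of the hem, was at 32.7 FPKM in V1PAKI and 12.9 FPKM in Ctrl at d16D, against 0.831 FPKM in V1PAKI and 0.962 FPKM in Ctrl at d10 (log2 change 3.51, SE 0.48, adjusted p = 0.0215). RSPO1, a secreted protein that strengthens WNT signals, was at 17.6 FPKM in V1PAKI and 15.2 FPKM in Ctrl at d16D, against 1.28 FPKM in V1PAKI and 3.59 FPKM in Ctrl at d10 (log2 change 2.42, SE 0.31, adjusted p = 0.0149). LMX1A, a LIM-homeobox factor of the hem and roof plate, had 3.21 FPKM in V1PAKI and 1.96 FPKM in Ctrl at d16D, against 0.329 FPKM in V1PAKI and 0.341 FPKM in Ctrl at d10 (log2 change 1.40, SE 0.24, adjusted p = 0.0450). All 3 reached higher levels in V1PAKI d16D than in Ctrl d16D. WNT2B, a further hem ligand, had 2.41 FPKM in V1PAKI and 1.54 FPKM in Ctrl at d16D, against 0.622 FPKM in V1PAKI and 0.667 FPKM in Ctrl at d10 and did not pass (adjusted p = 0.140). In fits of 9 libraries the number was 2 with V1PAKI d16D left out, 4 with Ctrl d16D, 0 with V1PAKI d10 and 1 with Ctrl d10 left out. Part of the list was divided by line: 5 of the 18 were at least 1 log2 unit higher in V1PAKI and at least 1 lower in Ctrl. Among all genes, 226 (1.59% of those tested) did this and 19 (0.134%) did the reverse. BMP4, a BMP ligand, was one, at 17.6 FPKM in V1PAKI and 2.93 FPKM in Ctrl at d16D, against 6.31 FPKM in V1PAKI and 27.3 FPKM in Ctrl at d10. MSX1, a BMP-responsive homeobox gene, was another, at 20.1 FPKM in V1PAKI and 5.64 FPKM in Ctrl at d16D, against 1.16 FPKM in V1PAKI and 14.2 FPKM in Ctrl at d10; both were picked after their values were seen.

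Among 27 WNT pathway genes tested, 3 rose, and the median change was 0.41 (0.88 in V1PAKI and 0.22 in Ctrl). WNT7B, a ligand of cortical progenitors, stood at 19.6 FPKM in V1PAKI and 14.997 FPKM in Ctrl at d16D, against 0.953 FPKM in V1PAKI and 2.48 FPKM in Ctrl at d10 (log2 change 2.80, SE 0.31, adjusted p = 0.0109). WNT1, a ligand of the dorsal midline and the midbrain, stood at 8.59 FPKM in V1PAKI and 3.70 FPKM in Ctrl at d16D, against 0.657 FPKM in V1PAKI and 0.290 FPKM in Ctrl at d10 (log2 change 2.20, SE 0.33, adjusted p = 0.0323). LGR5, the receptor for R-spondins, had 7.92 FPKM in V1PAKI and 10.5 FPKM in Ctrl at d16D, against 2.33 FPKM in V1PAKI and 2.33 FPKM in Ctrl at d10 (log2 change 1.60, SE 0.20, adjusted p = 0.0149). The ligands and the receptor were thus higher at d16D in both lines, without overlap between the days. WNT1 had passed the filter through d16D alone, and at 5 FPKM 0 of 16 rose. Fits of 9 libraries called 3 with V1PAKI d16D left out, 3 with Ctrl d16D, 0 with V1PAKI d10 and 1 with Ctrl d10 left out. AXIN2, a feedback target used as a readout of canonical WNT signalling, had 13.7 FPKM in V1PAKI and 9.82 FPKM in Ctrl at d16D, against 4.17 FPKM in V1PAKI and 7.58 FPKM in Ctrl at d10 and did not pass (adjusted p = 0.182). WNT7A was below the filter, at 0.971 FPKM in V1PAKI and 3.09 FPKM in Ctrl at d16D, against 0.104 FPKM in V1PAKI and 0.317 FPKM in Ctrl at d10. WNT1 was also the 1 gene of 10 tested in the midbrain and hindbrain list to rise; that list had a median change of 0.15 (1.22 in V1PAKI and -0.63 in Ctrl). The midbrain factors EN1 and EN2 were under 1 FPKM in all 4 libraries. EN1 had 0.192 FPKM in V1PAKI and a listed 0 in Ctrl at d16D, against 0.0898 FPKM in V1PAKI and 0.0536 FPKM in Ctrl at d10. EN2 had 0.492 FPKM in V1PAKI and 0.0522 FPKM in Ctrl at d16D, against a listed 0 in V1PAKI and 0.0453 FPKM in Ctrl at d10. GBX2, a factor of the anterior hindbrain, had 1.95 FPKM in V1PAKI and 1.63 FPKM in Ctrl at d16D, against 1.58 FPKM in V1PAKI and 1.58 FPKM in Ctrl at d10 (adjusted p = 0.861). Other members were not low; PAX2 and HOXB2 were picked after their values were seen, and FGF8 is given with the FGF genes. PAX2, a paired-box factor, had 2.20 FPKM in V1PAKI and 2.33 FPKM in Ctrl at d16D, against 8.97 FPKM in V1PAKI and 3.74 FPKM in Ctrl at d10 (adjusted p = 0.140). HOXB2, a hindbrain homeobox factor, had 10.7 FPKM in V1PAKI and 1.80 FPKM in Ctrl at d16D, against 0.866 FPKM in V1PAKI and 8.03 FPKM in Ctrl at d10 (adjusted p = 0.826), high in V1PAKI d16D and Ctrl d10.

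Eye genes were split. Of 14 eye and hypothalamus genes tested, 2 rose, and the median change was 0.16 (0.13 in V1PAKI and 0.12 in Ctrl). DCT, an enzyme of melanin synthesis, was one, at 2.99 FPKM in V1PAKI and 4.40 FPKM in Ctrl at d16D, against 0.632 FPKM in V1PAKI and 0.222 FPKM in Ctrl at d10 (log2 change 1.72, SE 0.28, adjusted p = 0.0394). The early eye-field factors did not follow it. RAX had 18.3 FPKM in V1PAKI and 14.9 FPKM in Ctrl at d16D, against 29.6 FPKM in V1PAKI and 24.3 FPKM in Ctrl at d10 (adjusted p = 0.308), lower at d16D in both lines. SIX3 had 11.9 FPKM in V1PAKI and 27.5 FPKM in Ctrl at d16D, against 76.3 FPKM in V1PAKI and 32.5 FPKM in Ctrl at d10 (adjusted p = 0.238). SIX6 was at 8.25 FPKM in V1PAKI and 9.05 FPKM in Ctrl at d16D, against 12.2 FPKM in V1PAKI and 6.58 FPKM in Ctrl at d10, with the days overlapping (adjusted p = 0.960). DCT had passed the filter through d16D alone, and at 5 FPKM 0 of 8 eye genes rose. The number that rose was 2 with V1PAKI d16D left out, 1 with Ctrl d16D, 0 with V1PAKI d10 and 0 with Ctrl d10 left out, and without Ctrl d10 1 gene of the list fell. HESX1, a repressor of the early anterior neural plate picked after its values were seen, stood at 1.20 FPKM in V1PAKI and 0.767 FPKM in Ctrl at d16D, against 40.6 FPKM in V1PAKI and 6.53 FPKM in Ctrl at d10, and missed the threshold (adjusted p = 0.0792).

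**Figure D2:**
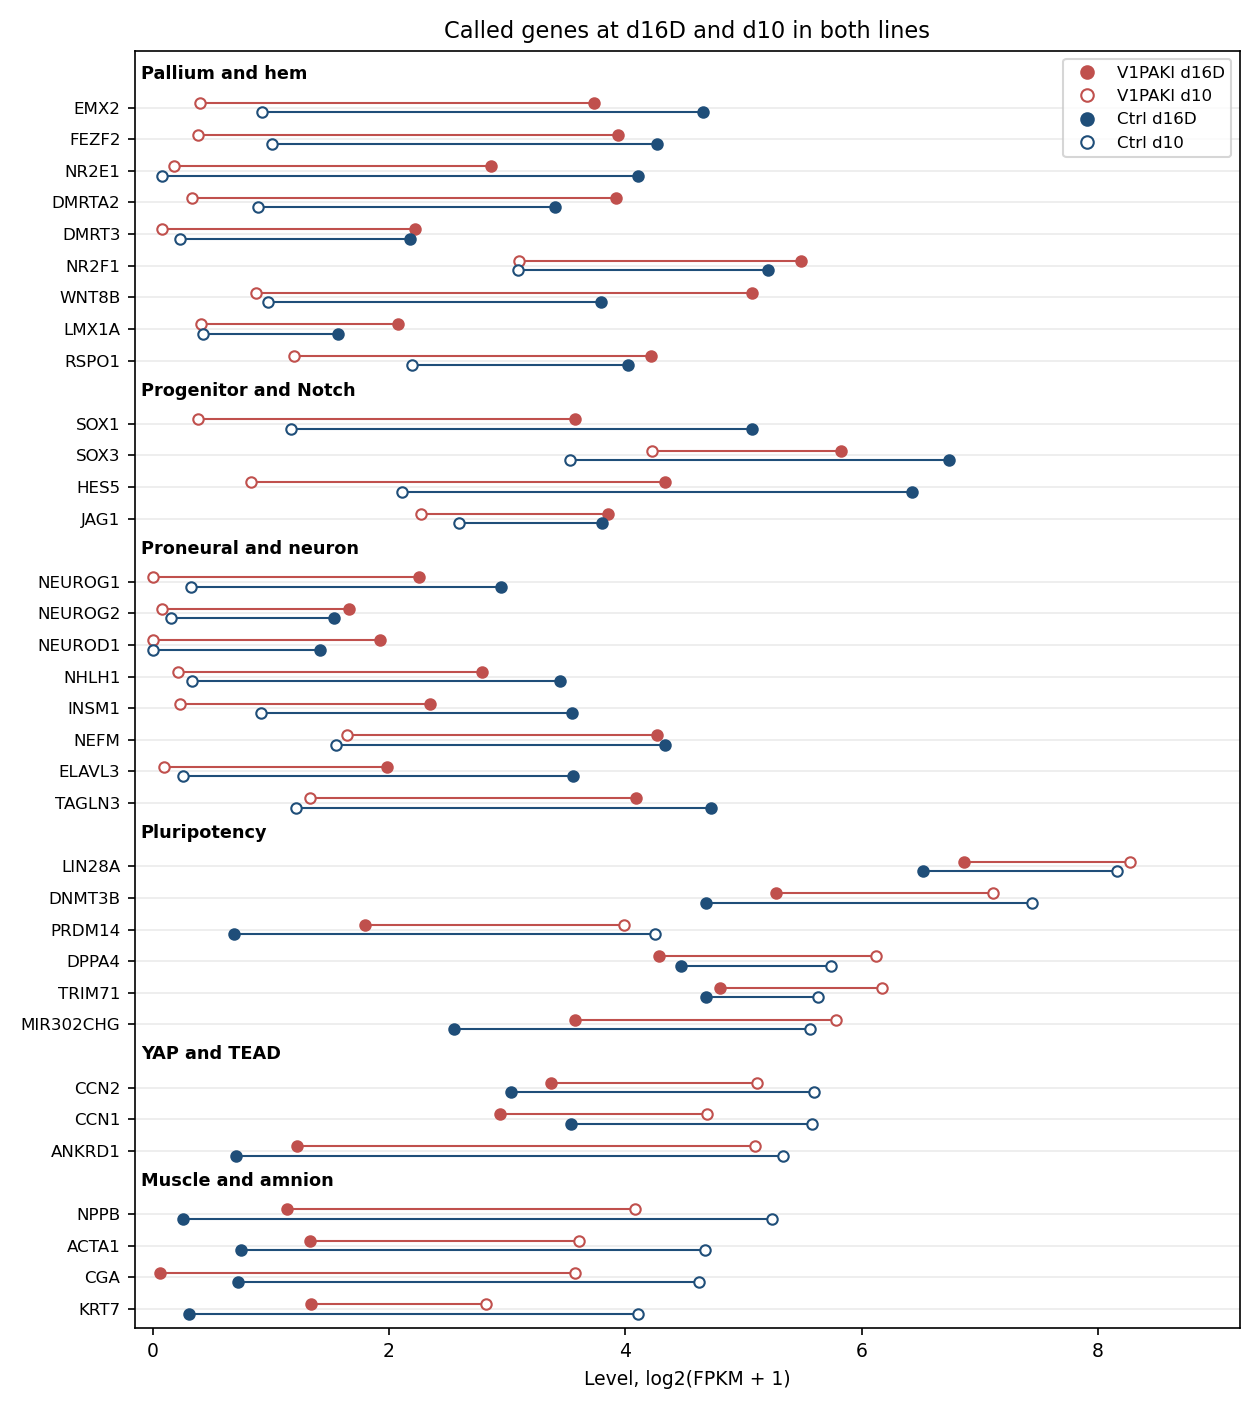
Levels as log2(FPKM + 1) of 34 genes that rose or fell, grouped by role; filled points are d16D, open points d10, in red for V1PAKI and blue for Ctrl, 1 library per point. Filled points lie to the right of the open ones in the first 3 groups and to the left in the last 3, in both lines.

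Progenitor factors changed less evenly. SOX1 (chr13:112067647-112070488, GRCh38), a factor that marks the neural plate, stood at 10.9 FPKM in V1PAKI and 32.6 FPKM in Ctrl at d16D, against 0.306 FPKM in V1PAKI and 1.26 FPKM in Ctrl at d10 (log2 change 3.54, SE 0.40, adjusted p = 0.0109). Both lines rose by a similar amount (3.19 in V1PAKI and 3.90 in Ctrl) although V1PAKI stayed the lower line on both days. SOX3, its X-linked relative, was at 55.6 FPKM in V1PAKI and 106 FPKM in Ctrl at d16D, against 17.7 FPKM in V1PAKI and 10.5 FPKM in Ctrl at d10 (log2 change 2.40, SE 0.37, adjusted p = 0.0330). SOX2, shared by pluripotent and neural cells, did not differ in one direction, at 83.8 FPKM in V1PAKI and 130.2 FPKM in Ctrl at d16D, against 112 FPKM in V1PAKI and 91.3 FPKM in Ctrl at d10 (adjusted p = 0.957). NES, an intermediate filament of progenitors, had 117 FPKM in V1PAKI and 169 FPKM in Ctrl at d16D, against 63.6 FPKM in V1PAKI and 66.3 FPKM in Ctrl at d10 and did not pass (adjusted p = 0.0990). Of 23 neuroepithelial genes tested 2 rose, with a median change of 0.66 (0.00033 in V1PAKI and 0.92 in Ctrl); the number that rose was 4 with V1PAKI d16D left out, 3 with Ctrl d16D, 0 with V1PAKI d10 and 0 with Ctrl d10 left out. SOX1-OT, the noncoding gene named in the study's title, was below the filter, at 0.212 FPKM in V1PAKI and 1.87 FPKM in Ctrl at d16D, against 0.0432 FPKM in V1PAKI and 0.0513 FPKM in Ctrl at d10. HDAC10, a histone deacetylase also named there, had 3.18 FPKM in V1PAKI and 3.92 FPKM in Ctrl at d16D, against 1.05 FPKM in V1PAKI and 2.49 FPKM in Ctrl at d10 and did not pass (adjusted p = 0.247).

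Of 9 POU and ZIC factors, 4 rose, and the median change was 0.87 (0.91 in V1PAKI and 0.83 in Ctrl). POU3F3 (BRN1), a POU factor of cortical progenitors, was at 5.60 FPKM in V1PAKI and 43.3 FPKM in Ctrl at d16D, against 0.126 FPKM in V1PAKI and 0.307 FPKM in Ctrl at d10 (log2 change 3.82, SE 0.64, adjusted p = 0.0439). POU3F2 (BRN2), its close relative, was at 7.61 FPKM in V1PAKI and 9.90 FPKM in Ctrl at d16D, against 1.26 FPKM in V1PAKI and 1.02 FPKM in Ctrl at d10 (log2 change 2.18, SE 0.22, adjusted p = 0.00796). ZIC1 and ZIC4, zinc finger genes that neighbour each other on chromosome 3 and act in dorsal neural tissue, moved together. ZIC1 had 13.1 FPKM in V1PAKI and 27.1 FPKM in Ctrl at d16D, against 0.745 FPKM in V1PAKI and 1.25 FPKM in Ctrl at d10 (log2 change 3.33, SE 0.33, adjusted p = 0.00796). ZIC4 had 1.78 FPKM in V1PAKI and 3.82 FPKM in Ctrl at d16D, against 0.168 FPKM in V1PAKI and 0.0900 FPKM in Ctrl at d10 (log2 change 1.70, SE 0.28, adjusted p = 0.0406). In all 4 factors the days did not overlap and Ctrl d16D was the highest library. POU3F3 and ZIC4 had passed the filter through d16D alone, and at 5 FPKM 1 of 7 rose. In fits of 9 libraries the number was 4 with V1PAKI d16D left out, 3 with Ctrl d16D, 0 with V1PAKI d10 and 0 with Ctrl d10 left out.

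In the Notch pathway 2 of 20 genes tested rose, and the median change was 0.94 (0.88 in V1PAKI and 1.16 in Ctrl). HES5, a repressor switched on by Notch in progenitors, stood at 19.2 FPKM in V1PAKI and 85.2 FPKM in Ctrl at d16D, against 0.775 FPKM in V1PAKI and 3.31 FPKM in Ctrl at d10 (log2 change 3.92, SE 0.53, adjusted p = 0.0197). JAG1, a Notch ligand, had 13.4 FPKM in V1PAKI and 12.9 FPKM in Ctrl at d16D, against 3.82 FPKM in V1PAKI and 5.03 FPKM in Ctrl at d10 (log2 change 1.40, SE 0.19, adjusted p = 0.0210). The promoter of HES5 is shown because the gene is a direct Notch target in mouse. The Notch effector RBPJ binds the letters TGGGAA, in capitals here on either strand, within 250 bases before to 50 after the start (RefSeq, GRCh38.p14, minus strand, chr1:2530214-2530513).
HES5: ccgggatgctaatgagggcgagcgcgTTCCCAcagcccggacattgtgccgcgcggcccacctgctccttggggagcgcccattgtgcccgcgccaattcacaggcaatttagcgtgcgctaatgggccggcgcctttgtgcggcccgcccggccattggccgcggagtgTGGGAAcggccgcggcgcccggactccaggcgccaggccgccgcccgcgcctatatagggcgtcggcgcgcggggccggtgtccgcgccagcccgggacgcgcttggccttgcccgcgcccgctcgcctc
It holds 2 matches, while the promoter of JAG1 holds 0. At least 1 match stood in 8 of the 22 promoters found for the list (36.4%) and in 24% of all 35116 promoters of the same length; a match is a description of the letters only. Of the other genes, DLL1, the ligand of differentiating cells, was at 15.8 FPKM in V1PAKI and 42.2 FPKM in Ctrl at d16D, against 4.67 FPKM in V1PAKI and 7.63 FPKM in Ctrl at d10, just short of the threshold (adjusted p = 0.0521). NOTCH1, the receptor, had 15.5 FPKM in V1PAKI and 35.6 FPKM in Ctrl at d16D, against 8.07 FPKM in V1PAKI and 11.7 FPKM in Ctrl at d10 (adjusted p = 0.143). HES4, a relative of HES5, was at 31.4 FPKM in V1PAKI and 119.9 FPKM in Ctrl at d16D, against 1.69 FPKM in V1PAKI and 12.3 FPKM in Ctrl at d10 (adjusted p = 0.0589). With the block for line left out 6 of the 20 rose. The number with 9 libraries was 5 with V1PAKI d16D left out, 0 with Ctrl d16D, 0 with V1PAKI d10 and 1 with Ctrl d10 left out.

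Proneural factors rose in 6 of the 9 cases that could be tested, from a list of 22, with a median change of 1.67 (1.92 in V1PAKI and 1.42 in Ctrl). Of the 9, 8 had passed the filter through d16D alone, all 6 that rose among them, so that their direction was fixed by the filter. At 5 FPKM 1 gene of the list was left to test, and it did not pass. NEUROG1, a bHLH factor that starts neuronal differentiation, was at 3.76 FPKM in V1PAKI and 6.74 FPKM in Ctrl at d16D, against a listed 0 in V1PAKI and 0.253 FPKM in Ctrl at d10 (log2 change 2.44, SE 0.25, adjusted p = 0.00796). NEUROG2, which acts beside it in the cortex, was at 2.17 FPKM in V1PAKI and 1.89 FPKM in Ctrl at d16D, against 0.0576 FPKM in V1PAKI and 0.112 FPKM in Ctrl at d10 (log2 change 1.48, SE 0.24, adjusted p = 0.0415). At d10 both factors were close to 0 in both lines. Downstream, NEUROD1 stood at 2.78 FPKM in V1PAKI and 1.67 FPKM in Ctrl at d16D, against a listed 0 in V1PAKI and a listed 0 in Ctrl at d10 (adjusted p = 0.0362). NHLH1, a bHLH factor of newborn neurons, had 5.88 FPKM in V1PAKI and 9.88 FPKM in Ctrl at d16D, against 0.162 FPKM in V1PAKI and 0.262 FPKM in Ctrl at d10 (log2 change 2.84, SE 0.24, adjusted p = 0.00456). INSM1, a zinc finger factor of progenitors that leave the cycle, had 4.09 FPKM in V1PAKI and 10.7 FPKM in Ctrl at d16D, against 0.173 FPKM in V1PAKI and 0.885 FPKM in Ctrl at d10 (log2 change 2.38, SE 0.30, adjusted p = 0.0149). Fits of 9 libraries called 4 with V1PAKI d16D left out, 5 with Ctrl d16D, 1 with V1PAKI d10 and 1 with Ctrl d10 left out.

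Among early neuronal genes the called share was smaller. Of 19 genes of neuron structure 3 rose, and 15 were higher at an unadjusted p under 0.05; the median change was 1.11 (0.92 in V1PAKI and 1.50 in Ctrl). NEFM, the medium neurofilament, was at 18.3 FPKM in V1PAKI and 19.2 FPKM in Ctrl at d16D, against 2.13 FPKM in V1PAKI and 1.93 FPKM in Ctrl at d10 (log2 change 2.71, SE 0.23, adjusted p = 0.00456). ELAVL3, a neuronal RNA-binding protein, was at 2.95 FPKM in V1PAKI and 10.8 FPKM in Ctrl at d16D, against 0.0670 FPKM in V1PAKI and 0.192 FPKM in Ctrl at d10 (log2 change 2.59, SE 0.42, adjusted p = 0.0396). TAGLN3, a neuronal actin-binding protein, had 16.1 FPKM in V1PAKI and 25.5 FPKM in Ctrl at d16D, against 1.52 FPKM in V1PAKI and 1.32 FPKM in Ctrl at d10 (log2 change 3.14, SE 0.23, adjusted p = 0.00332). NEFM was nearly equal in the lines at each day, whereas ELAVL3 was higher in Ctrl. DCX, a microtubule protein of migrating neurons, had 4.89 FPKM in V1PAKI and 26.02 FPKM in Ctrl at d16D, against 2.11 FPKM in V1PAKI and 0.711 FPKM in Ctrl at d10 and did not pass (adjusted p = 0.124). TUBB3, neuronal tubulin, had 37.1 FPKM in V1PAKI and 111 FPKM in Ctrl at d16D, against 16.9 FPKM in V1PAKI and 33.3 FPKM in Ctrl at d10 (adjusted p = 0.132). ELAVL3 had passed the filter through d16D alone, and at 5 FPKM 2 of 12 rose. The number that rose was 8 with V1PAKI d16D left out, 2 with Ctrl d16D, 2 with V1PAKI d10 and 2 with Ctrl d10 left out.

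Of 14 synaptic and neuropeptide genes tested 2 rose, TRH and SYT4. Both were among the 4 that had passed the filter through d16D alone, and at 5 FPKM 1 of 3 rose. TRH, the precursor of thyrotropin-releasing hormone, stood at 20.2 FPKM in V1PAKI and 19.3 FPKM in Ctrl at d16D, against 0.118 FPKM in V1PAKI and 0.851 FPKM in Ctrl at d10 (log2 change 3.85, SE 0.27, adjusted p = 0.00332), and at 0.524 FPKM in V1PAKI and 0.733 FPKM in Ctrl at d16V. SYT4, a vesicle protein, was at 3.11 FPKM in V1PAKI and 2.53 FPKM in Ctrl at d16D, against 0.134 FPKM in V1PAKI and 0.244 FPKM in Ctrl at d10 (log2 change 1.68, SE 0.24, adjusted p = 0.0251). SNAP25, of the fusion machinery, had 1.31 FPKM in V1PAKI and 1.60 FPKM in Ctrl at d16D, against 0.174 FPKM in V1PAKI and 0.299 FPKM in Ctrl at d10 (adjusted p = 0.0770). The vesicle calcium sensor SYT1 had 2.19 FPKM in V1PAKI and 6.68 FPKM in Ctrl at d16D, against 4.93 FPKM in V1PAKI and 1.54 FPKM in Ctrl at d10 (adjusted p = 0.776). SYT4 was low but did not overlap between days, whereas SYT1 did. In fits of 9 libraries the number was 1 with V1PAKI d16D left out, 2 with Ctrl d16D, 1 with V1PAKI d10 and 1 with Ctrl d10 left out.

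Of 29 guidance genes 2 rose, SLIT1 and EPHA3, with a median change of 0.34 (0.36 in V1PAKI and 0.14 in Ctrl). Both were among the 4 that had passed the filter through d16D alone, and at 5 FPKM 0 of 16 rose. SLIT1, a repellent ligand of axons, was at 3.79 FPKM in V1PAKI and 5.10 FPKM in Ctrl at d16D, against 0.469 FPKM in V1PAKI and 0.295 FPKM in Ctrl at d10 (log2 change 1.97, SE 0.22, adjusted p = 0.0109). EPHA3, an ephrin receptor, was at 3.73 FPKM in V1PAKI and 10.1 FPKM in Ctrl at d16D, against 0.295 FPKM in V1PAKI and 0.473 FPKM in Ctrl at d10 (log2 change 2.39, SE 0.33, adjusted p = 0.0221). The ligand NTN1 had 2.96 FPKM in V1PAKI and 7.32 FPKM in Ctrl at d16D, against 2.39 FPKM in V1PAKI and 2.40 FPKM in Ctrl at d10 (adjusted p = 0.258). ROBO1, a receptor for SLIT proteins, had 10.05 FPKM in V1PAKI and 10.8 FPKM in Ctrl at d16D, against 32.5 FPKM in V1PAKI and 12.6 FPKM in Ctrl at d10 (adjusted p = 0.283). ROBO1 was lower at d16D in both lines, unlike its ligand SLIT1. The number of guidance genes that rose was 4 with V1PAKI d16D left out, 2 with Ctrl d16D, 0 with V1PAKI d10 and 0 with Ctrl d10 left out, and 1 fell without V1PAKI d16D. Cajal-Retzius genes, which mark the first neurons of the cortical surface, gave no call among 7 tested (limma; 3 higher at an unadjusted p under 0.05), and 1 rose with either V1PAKI d16D or Ctrl d16D left out. RELN, their secreted signal, was at 11.1 FPKM in V1PAKI and 3.34 FPKM in Ctrl at d16D, against 1.89 FPKM in V1PAKI and 6.26 FPKM in Ctrl at d10 (adjusted p = 0.613). TP73, a transcription factor of these neurons, was below the filter, at 0.475 FPKM in V1PAKI and 0.384 FPKM in Ctrl at d16D, against 0.265 FPKM in V1PAKI and 0.412 FPKM in Ctrl at d10. LHX1 was below it too, at 0.683 FPKM in V1PAKI and 0.841 FPKM in Ctrl at d16D, against 0.128 FPKM in V1PAKI and 0.585 FPKM in Ctrl at d10.

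Of 21 pluripotency genes tested 5 fell and 15 were lower at an unadjusted p under 0.05, with a median change of -1.52 (-1.11 in V1PAKI and -2.24 in Ctrl). LIN28A, an RNA-binding protein that blocks maturation of let-7, stood at 116 FPKM in V1PAKI and 90.99 FPKM in Ctrl at d16D, against 308 FPKM in V1PAKI and 285 FPKM in Ctrl at d10 (log2 change -1.52, SE 0.19, adjusted p = 0.0150). DNMT3B, the de novo DNA methyltransferase of stem cells, stood at 37.7 FPKM in V1PAKI and 24.7 FPKM in Ctrl at d16D, against 137 FPKM in V1PAKI and 173 FPKM in Ctrl at d10 (log2 change -2.30, SE 0.30, adjusted p = 0.0167). PRDM14, a repressor of differentiation genes, had 2.47 FPKM in V1PAKI and 0.611 FPKM in Ctrl at d16D, against 14.9 FPKM in V1PAKI and 18.1 FPKM in Ctrl at d10 (log2 change -2.88, SE 0.41, adjusted p = 0.0239). DPPA4, a chromatin protein of the same state, had 18.5 FPKM in V1PAKI and 21.2 FPKM in Ctrl at d16D, against 68.8 FPKM in V1PAKI and 52.3 FPKM in Ctrl at d10 (log2 change -1.55, SE 0.20, adjusted p = 0.0175). TRIM71, a partner of LIN28A in that state, had 26.8 FPKM in V1PAKI and 24.7 FPKM in Ctrl at d16D, against 70.9 FPKM in V1PAKI and 48.5 FPKM in Ctrl at d10 (log2 change -1.16, SE 0.20, adjusted p = 0.0480). In these 5 genes both d16D libraries lay below both d10 libraries. POU5F1 (OCT4) and NANOG, the core factors, were not called, and their levels in V1PAKI at d16D were several-fold those in Ctrl. POU5F1 had 34.2 FPKM in V1PAKI and 5.64 FPKM in Ctrl at d16D, against 62.7 FPKM in V1PAKI and 134 FPKM in Ctrl at d10 (adjusted p = 0.151). NANOG had 1.45 FPKM in V1PAKI and 0.106 FPKM in Ctrl at d16D, against 2.86 FPKM in V1PAKI and 4.32 FPKM in Ctrl at d10 (adjusted p = 0.124). The number of the 21 that fell was 11 with V1PAKI d16D left out, 2 with Ctrl d16D, 0 with V1PAKI d10 and 1 with Ctrl d10 left out. Of 11 genes around let-7 and its targets, LIN28A and TRIM71 were the 2 that fell. LIN28B had 18.2 FPKM in V1PAKI and 22.6 FPKM in Ctrl at d16D, against 40.5 FPKM in V1PAKI and 19.99 FPKM in Ctrl at d10 (adjusted p = 0.506). HMGA2, a chromatin protein, had 14.99 FPKM in V1PAKI and 20.8 FPKM in Ctrl at d16D, against 26.99 FPKM in V1PAKI and 13.97 FPKM in Ctrl at d10 (adjusted p = 0.872). The number of the 11 that fell was 1 with V1PAKI d16D left out, 0 with Ctrl d16D, 0 with V1PAKI d10 and 0 with Ctrl d10 left out, and 1 at a filter of 5 FPKM. APELA, a secreted peptide of embryonic stem cells, was among the 15 largest falls, with 2.17 FPKM in V1PAKI and 0.645 FPKM in Ctrl at d16D, against 14.7 FPKM in V1PAKI and 11.6 FPKM in Ctrl at d10 (log2 change -2.63, SE 0.27, adjusted p = 0.00796).

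The host transcript of the miR-302 and miR-367 cluster was another of the 15 largest falls. MIR302CHG stood at 10.9 FPKM in V1PAKI and 4.84 FPKM in Ctrl at d16D, against 53.9 FPKM in V1PAKI and 46.4 FPKM in Ctrl at d10 (log2 change -2.61, SE 0.41, adjusted p = 0.0345). This cluster of microRNAs is abundant in human embryonic stem cells. The mature strands are shown with bases 2 to 8, the seed that pairs with targets, in capitals (RefSeq, GRCh38.p14, minus strand of chromosome 4).
miR-302a-3p: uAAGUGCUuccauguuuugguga
miR-302b-3p: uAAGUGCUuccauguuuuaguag
miR-302c-3p: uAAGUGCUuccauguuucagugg
miR-302d-3p: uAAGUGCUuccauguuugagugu
miR-367-3p: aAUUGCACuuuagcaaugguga
The 4 miR-302 strands share the seed AAGUGCU, and miR-367 has the seed AUUGCAC. Mature microRNAs were not measured: a TruSeq RNA library holds the longer transcripts, and the rows of the hairpin genes may count fragments of the host. The hairpin rows were chosen after their values were seen. MIR302A was at 4.11 FPKM in V1PAKI and 0.324 FPKM in Ctrl at d16D, against 13.4 FPKM in V1PAKI and 10.8 FPKM in Ctrl at d10 (adjusted p = 0.133). MIR302B was at 1.36 FPKM in V1PAKI and 0.869 FPKM in Ctrl at d16D, against 5.60 FPKM in V1PAKI and 2.89 FPKM in Ctrl at d10 (adjusted p = 0.159). MIR302C was at 3.40 FPKM in V1PAKI and 2.15 FPKM in Ctrl at d16D, against 18.6 FPKM in V1PAKI and 11.9 FPKM in Ctrl at d10 (adjusted p = 0.0732). These 3 were lower at d16D in both lines, without passing. MIR302D was at 3.35 FPKM in V1PAKI and 2.66 FPKM in Ctrl at d16D, against 14.02 FPKM in V1PAKI and 14.4 FPKM in Ctrl at d10 (adjusted p = 0.0883). MIR367, the row that fell, was at 4.02 FPKM in V1PAKI and 3.94 FPKM in Ctrl at d16D, against 23.1 FPKM in V1PAKI and 22.97 FPKM in Ctrl at d10 (log2 change -2.27, SE 0.38, adjusted p = 0.0436).

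Of the transcripts that host miR-9, 2 rose; they too were chosen after their values were seen. The 3 hairpins of miR-9, a microRNA of neural progenitors, lie on chromosomes 1, 5 and 15 and give the same mature strand, with its seed in capitals (RefSeq, GRCh38.p14).
miR-9-5p: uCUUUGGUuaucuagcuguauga
C1orf61, the host on chromosome 1, stood at 5.06 FPKM in V1PAKI and 6.07 FPKM in Ctrl at d16D, against 0.109 FPKM in V1PAKI and 0.426 FPKM in Ctrl at d10 (log2 change 2.38, SE 0.23, adjusted p = 0.00755), and at 0.562 FPKM in V1PAKI and 0.652 FPKM in Ctrl at d16V. LINC00461, the host on chromosome 5, stood at 1.32 FPKM in V1PAKI and 3.11 FPKM in Ctrl at d16D, against a listed 0 in V1PAKI and 0.00454 FPKM in Ctrl at d10 (adjusted p = 0.0439). MIR9-3HG, the host on chromosome 15, had 1.32 FPKM in V1PAKI and 4.35 FPKM in Ctrl at d16D, against 0.0124 FPKM in V1PAKI and 0.0919 FPKM in Ctrl at d10 and missed the threshold (adjusted p = 0.0590). In all 3 hosts both d16D libraries exceeded both d10 libraries. All 3 had passed the filter through d16D alone, so that this order was fixed by the filter.

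**Figure D3:**
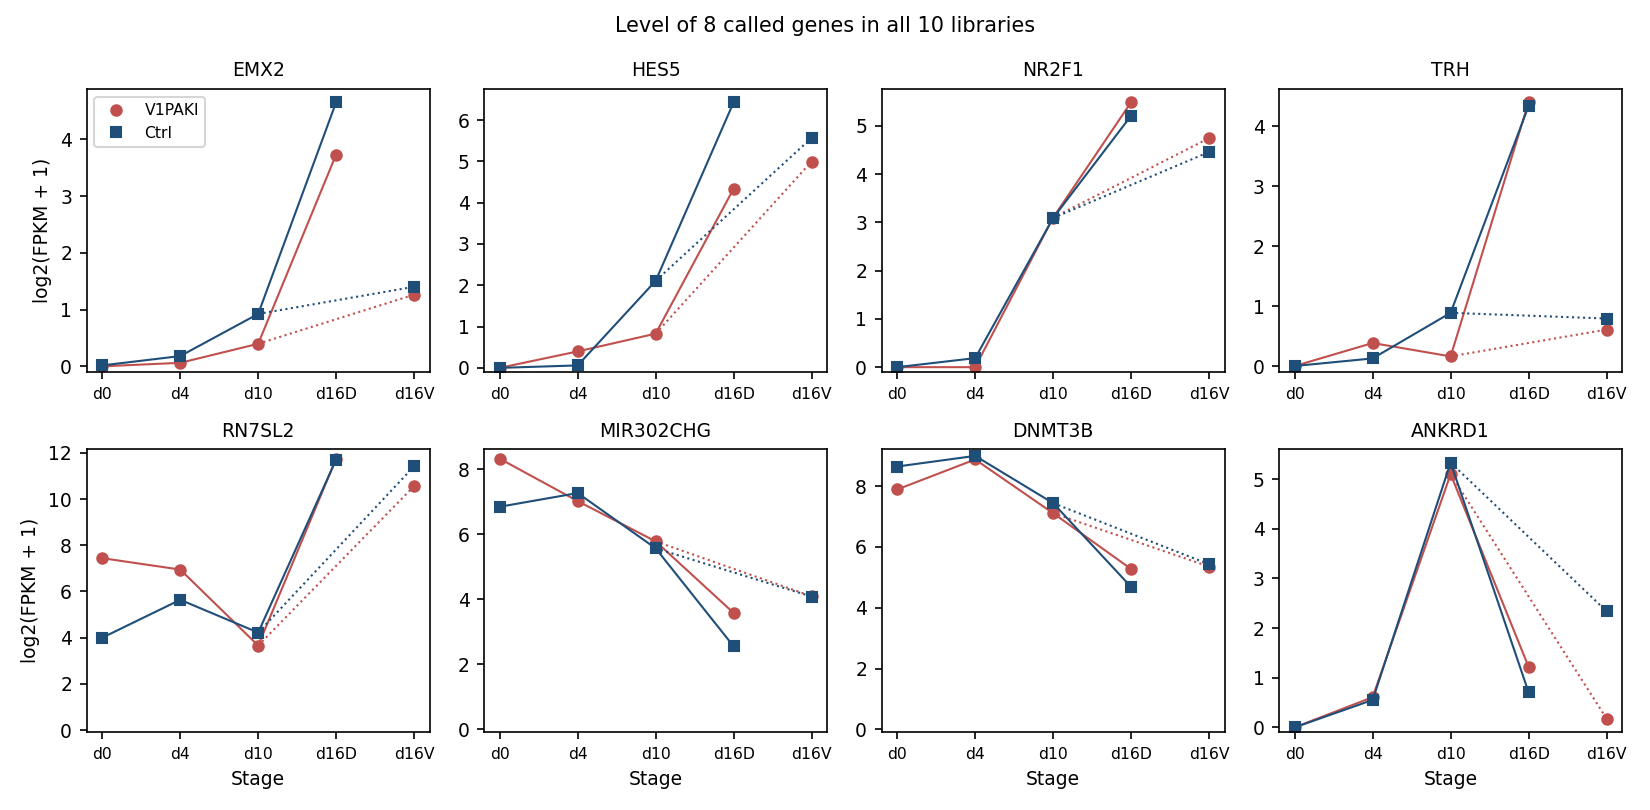
Levels as log2(FPKM + 1) of 8 called genes in all 10 libraries, by stage; red circles are V1PAKI and blue squares Ctrl, solid lines join d0 to d16D and dotted lines join d10 to d16V. EMX2 and TRH are high in d16D and low in d16V in both lines, RN7SL2 is high in both day 16 arms, and ANKRD1 is highest at d10.

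Targets of YAP and TEAD fell in 3 of 19 cases, and 6 were lower at an unadjusted p under 0.05; the median change was -0.48 (-0.23 in V1PAKI and -0.60 in Ctrl). ANKRD1, a muscle ankyrin repeat protein and a classical YAP target, stood at 1.33 FPKM in V1PAKI and 0.633 FPKM in Ctrl at d16D, against 33.3 FPKM in V1PAKI and 39.3 FPKM in Ctrl at d10 (log2 change -4.25, SE 0.56, adjusted p = 0.0175). CCN2 (CTGF), a matricellular protein, was at 9.36 FPKM in V1PAKI and 7.18 FPKM in Ctrl at d16D, against 33.7 FPKM in V1PAKI and 47.3 FPKM in Ctrl at d10 (log2 change -2.15, SE 0.35, adjusted p = 0.0412). CCN1 (CYR61), its relative, was at 6.65 FPKM in V1PAKI and 10.7 FPKM in Ctrl at d16D, against 24.9 FPKM in V1PAKI and 46.9 FPKM in Ctrl at d10 (log2 change -1.90, SE 0.29, adjusted p = 0.0345). In these 3 genes both d10 libraries exceeded both d16D libraries. The number that fell was 2 with V1PAKI d16D left out, 0 with Ctrl d16D, 0 with V1PAKI d10 and 0 with Ctrl d10 left out. YAP1 itself, chosen after its values were seen, had 42.04 FPKM in V1PAKI and 33.4 FPKM in Ctrl at d16D, against 44.5 FPKM in V1PAKI and 38.7 FPKM in Ctrl at d10 (adjusted p = 0.798). For ANKRD1 the d10 level was a peak across stages: it was listed at 0 in both lines at d0 and had 0.525 FPKM in V1PAKI and 0.467 FPKM in Ctrl at d4. The promoters of CCN2 and ANKRD1 are shown because TEAD binding there is known, with the letters GGAATG, which TEAD proteins bind, in capitals on either strand (RefSeq, GRCh38.p14, minus strand; chr6:131951323-131951622 for CCN2 and chr10:90921038-90921337 for ANKRD1).
CCN2: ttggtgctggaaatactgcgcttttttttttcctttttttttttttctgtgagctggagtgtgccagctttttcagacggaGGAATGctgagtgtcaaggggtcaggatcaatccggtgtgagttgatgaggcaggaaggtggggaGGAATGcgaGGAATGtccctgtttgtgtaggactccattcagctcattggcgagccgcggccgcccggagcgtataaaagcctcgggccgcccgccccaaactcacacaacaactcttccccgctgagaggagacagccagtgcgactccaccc
ANKRD1: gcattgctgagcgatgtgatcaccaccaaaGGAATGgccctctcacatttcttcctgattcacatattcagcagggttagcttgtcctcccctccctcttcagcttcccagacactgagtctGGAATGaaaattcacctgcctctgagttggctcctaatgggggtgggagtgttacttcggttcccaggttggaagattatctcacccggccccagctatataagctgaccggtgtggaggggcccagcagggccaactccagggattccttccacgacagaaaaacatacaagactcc
CCN2 holds 3 matches and ANKRD1 holds 2. At least 1 match stood in 9 of the 19 promoters found for the list (47.4%) and in 14% of all 35116 promoters, which describes the letters and not the binding.

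Genes of other cell types were also among the falls. Of 25 BMP and TGF beta genes 1 fell, which had passed the filter through d10 alone. The median change of that list was -0.35 (0.71 in V1PAKI and -1.46 in Ctrl). The number of BMP and TGF beta genes that fell was 2 with V1PAKI d16D left out, 1 with Ctrl d16D, 1 with V1PAKI d10 and 0 with Ctrl d10 left out, and 1 rose with V1PAKI d16D left out. NPPB, the natriuretic peptide of heart muscle, had 1.20 FPKM in V1PAKI and 0.195 FPKM in Ctrl at d16D, against 15.95 FPKM in V1PAKI and 36.7 FPKM in Ctrl at d10 (log2 change -3.96, SE 0.44, adjusted p = 0.0109). ACTA1, skeletal muscle actin, had 1.51 FPKM in V1PAKI and 0.675 FPKM in Ctrl at d16D, against 11.2 FPKM in V1PAKI and 24.6 FPKM in Ctrl at d10 (log2 change -3.11, SE 0.48, adjusted p = 0.0344). These were the 2 of 16 cardiac and smooth muscle genes that fell, in a list with a median change of -1.30 (0.40 in V1PAKI and -3.06 in Ctrl); the number that fell was 6 with V1PAKI d16D left out, 1 with Ctrl d16D, 1 with V1PAKI d10 and 0 with Ctrl d10 left out. ACTA2, smooth muscle actin, was at 9.30 FPKM in V1PAKI and 2.18 FPKM in Ctrl at d16D, against 20.1 FPKM in V1PAKI and 30.4 FPKM in Ctrl at d10 (adjusted p = 0.0940). TNNT2, cardiac troponin, was at 1.40 FPKM in V1PAKI and 0.0904 FPKM in Ctrl at d16D, against 0.445 FPKM in V1PAKI and 2.58 FPKM in Ctrl at d10 (adjusted p = 0.680). MYH6 was below the filter, at 0.960 FPKM in V1PAKI and 0.0503 FPKM in Ctrl at d16D, against 0.0128 FPKM in V1PAKI and 0.0426 FPKM in Ctrl at d10. ACTA2 was lower at d16D in both lines, whereas TNNT2 and MYH6 were higher in V1PAKI.

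CGA, the alpha subunit of the glycoprotein hormones, stood at 0.0420 FPKM in V1PAKI and 0.646 FPKM in Ctrl at d16D, against 10.9 FPKM in V1PAKI and 23.6 FPKM in Ctrl at d10 (log2 change -3.71, SE 0.31, adjusted p = 0.00456). KRT7, a keratin of simple epithelia, stood at 1.53 FPKM in V1PAKI and 0.240 FPKM in Ctrl at d16D, against 6.08 FPKM in V1PAKI and 16.3 FPKM in Ctrl at d10 (log2 change -2.64, SE 0.46, adjusted p = 0.0481). They were the 2 of 16 amnion and trophoblast genes to fall, in a list with a median change of -0.60 (0.85 in V1PAKI and -2.23 in Ctrl); the number that fell was 2 with V1PAKI d16D left out, 1 with Ctrl d16D, 1 with V1PAKI d10 and 1 with Ctrl d10 left out. CGA had passed the filter through d10 alone, and at 5 FPKM 0 of 9 fell. GATA3, a factor of the same tissues, was at 4.56 FPKM in V1PAKI and 0.596 FPKM in Ctrl at d16D, against 2.18 FPKM in V1PAKI and 8.73 FPKM in Ctrl at d10 (adjusted p = 0.546). CGB5 was below the filter, at 0.437 FPKM in V1PAKI and 0.456 FPKM in Ctrl at d16D, against 0.701 FPKM in V1PAKI and 4.50 FPKM in Ctrl at d10. TGM2, a transglutaminase, was among the 15 largest falls, with 1.87 FPKM in V1PAKI and 0.410 FPKM in Ctrl at d16D, against 10.6 FPKM in V1PAKI and 27.8 FPKM in Ctrl at d10 (log2 change -3.19, SE 0.48, adjusted p = 0.0323). CNMD, a membrane glycoprotein first known from cartilage, was another, with 3.05 FPKM in V1PAKI and 0.896 FPKM in Ctrl at d16D, against 16.4 FPKM in V1PAKI and 16.9 FPKM in Ctrl at d10 (log2 change -2.67, SE 0.30, adjusted p = 0.0109). In CGA, KRT7, TGM2 and CNMD both d10 libraries exceeded both d16D libraries. The summed marker level of V1PAKI, given above, was lower at d16D in the cardiac and smooth muscle list and higher in the amnion list.

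The 2 lines went opposite ways in much of the non-neural RNA. In the mesenchyme list 10 of 20 genes tested were at least 1 log2 unit lower in Ctrl and as much higher in V1PAKI, against 1.59% of all genes. The median change was 0.095 (1.43 in V1PAKI and -1.76 in Ctrl). COL1A1 had 151 FPKM in V1PAKI and 31.1 FPKM in Ctrl at d16D, against 14.8 FPKM in V1PAKI and 130.1 FPKM in Ctrl at d10 (adjusted p = 0.868). COL3A1 had 701 FPKM in V1PAKI and 102 FPKM in Ctrl at d16D, against 63.6 FPKM in V1PAKI and 379 FPKM in Ctrl at d10 (adjusted p = 0.851). PDGFRA, a growth factor receptor of mesenchyme, had 5.24 FPKM in V1PAKI and 1.61 FPKM in Ctrl at d16D, against 2.56 FPKM in V1PAKI and 5.98 FPKM in Ctrl at d10 (adjusted p = 0.799). At d16D the collagens were thus higher in V1PAKI, and at d10 in Ctrl. With the lines opposed, limma called none of the 20; 1 was lower at an unadjusted p under 0.05.

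The mesoderm list had a median change of 0.084 (1.52 in V1PAKI and -1.08 in Ctrl), with 5 of 11 genes opposed in the same sense. HAND1, a factor of lateral mesoderm and extraembryonic tissue, stood at 134 FPKM in V1PAKI and 8.41 FPKM in Ctrl at d16D, against 41.4 FPKM in V1PAKI and 223 FPKM in Ctrl at d10 (adjusted p = 0.680), the widest gap between the lines among the 226 genes lower in Ctrl and higher in V1PAKI. TBXT (brachyury) had 5.57 FPKM in V1PAKI and 0.548 FPKM in Ctrl at d16D, against 0.428 FPKM in V1PAKI and 3.93 FPKM in Ctrl at d10 (adjusted p = 0.896). MESP1 had 2.17 FPKM in V1PAKI and 0.344 FPKM in Ctrl at d16D, against 0.129 FPKM in V1PAKI and 1.84 FPKM in Ctrl at d10 (adjusted p = 0.883). All 3 were higher at d16D in V1PAKI and lower in Ctrl. In the endothelium and blood list, KDR, a VEGF receptor, had 26.6 FPKM in V1PAKI and 3.64 FPKM in Ctrl at d16D, against 10.5 FPKM in V1PAKI and 28.8 FPKM in Ctrl at d10 (adjusted p = 0.739). CDH5 had 1.44 FPKM in V1PAKI and 0.288 FPKM in Ctrl at d16D, against 0.529 FPKM in V1PAKI and 2.07 FPKM in Ctrl at d10 (adjusted p = 0.784). PECAM1 was below the filter, at 1.26 FPKM in V1PAKI and 0.179 FPKM in Ctrl at d16D, against 0.0700 FPKM in V1PAKI and 0.261 FPKM in Ctrl at d10. The median of its 5 tested genes was -0.29 (1.26 in V1PAKI and -1.25 in Ctrl). limma called none of the 11 and the 5 genes, of which 1 and 2 were higher at an unadjusted p under 0.05. With Ctrl d16D left out 1 of the 11 and 2 of the 5 rose. The imprinted pair IGF2 and H19 showed the same division. IGF2, a fetal growth factor, was at 541 FPKM in V1PAKI and 76.9 FPKM in Ctrl at d16D, against 65.6 FPKM in V1PAKI and 552 FPKM in Ctrl at d10 (adjusted p = 0.984). H19, its noncoding neighbour, was at 405 FPKM in V1PAKI and 39.7 FPKM in Ctrl at d16D, against 102 FPKM in V1PAKI and 434 FPKM in Ctrl at d10 (adjusted p = 0.855). DLK1, imprinted elsewhere, was higher at d16D in both lines, at 122 FPKM in V1PAKI and 243 FPKM in Ctrl at d16D, against 94.96 FPKM in V1PAKI and 98.01 FPKM in Ctrl at d10, without passing (adjusted p = 0.246). Of 13 imprinted genes tested limma called none, with 4 higher and 1 lower at an unadjusted p under 0.05, and 1 rose with Ctrl d16D left out.

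Further genes of this kind were CST1, a cystatin, at 51.1 FPKM in V1PAKI and 8.63 FPKM in Ctrl at d16D, against 4.03 FPKM in V1PAKI and 54.6 FPKM in Ctrl at d10 (adjusted p = 0.903), and COL6A2, at 115 FPKM in V1PAKI and 17.5 FPKM in Ctrl at d16D, against 15.1 FPKM in V1PAKI and 120.0 FPKM in Ctrl at d10 (adjusted p = 0.987). PITX1, a homeobox factor, was at 18.2 FPKM in V1PAKI and 1.88 FPKM in Ctrl at d16D, against 2.41 FPKM in V1PAKI and 20.9 FPKM in Ctrl at d10 (adjusted p = 0.947). In these 3 the levels in Ctrl at d16D and in V1PAKI at d10 were far lower than in the other 2 libraries. MFAP4, of the elastic matrix, was at 67.3 FPKM in V1PAKI and 10.5 FPKM in Ctrl at d16D, against 6.08 FPKM in V1PAKI and 49.7 FPKM in Ctrl at d10 (adjusted p = 0.862). TMEM88, a membrane protein of the WNT pathway, was at 73.2 FPKM in V1PAKI and 15.7 FPKM in Ctrl at d16D, against 19.1 FPKM in V1PAKI and 186 FPKM in Ctrl at d10 (adjusted p = 0.769). At d16D each was higher in V1PAKI, and at d10 each was higher in Ctrl. The reverse was rarer. CAPN6, a calpain, had 6.76 FPKM in V1PAKI and 52.1 FPKM in Ctrl at d16D, against 30.96 FPKM in V1PAKI and 14.7 FPKM in Ctrl at d10 (adjusted p = 0.953). PTPRZ1, a receptor phosphatase of neural progenitors, had 19.99 FPKM in V1PAKI and 54.2 FPKM in Ctrl at d16D, against 49.03 FPKM in V1PAKI and 17.9 FPKM in Ctrl at d10 (adjusted p = 0.923). Both were lower at d16D in V1PAKI and higher in Ctrl. FEZF1-AS1, which lies antisense to FEZF1 and cannot be told from it without strand, had 19.2 FPKM in V1PAKI and 68.3 FPKM in Ctrl at d16D, against 50.1 FPKM in V1PAKI and 19.02 FPKM in Ctrl at d10 (adjusted p = 0.905). SHISA2, an inhibitor of WNT and FGF receptor maturation, had 11.6 FPKM in V1PAKI and 37.4 FPKM in Ctrl at d16D, against 32.95 FPKM in V1PAKI and 14.2 FPKM in Ctrl at d10 (adjusted p = 0.982). In these the higher library was Ctrl at d16D and V1PAKI at d10. The rest of that group are uncertain rows. SNRPGP10, a pseudogene, had 1.42 FPKM in V1PAKI and 6.44 FPKM in Ctrl at d16D, against 4.82 FPKM in V1PAKI and 1.12 FPKM in Ctrl at d10 (adjusted p = 0.865). The read-through gene RPL17-C18orf32 had 18.5 FPKM in V1PAKI and 26.8 FPKM in Ctrl at d16D, against 47.2 FPKM in V1PAKI and 7.17 FPKM in Ctrl at d10 (adjusted p = 0.892). Reads of a parent gene can reach both rows. The unnamed genes were AC011603.2, at 15.1 FPKM in V1PAKI and 75.5 FPKM in Ctrl at d16D, against 71.5 FPKM in V1PAKI and 25.9 FPKM in Ctrl at d10 (adjusted p = 0.865), and AC087721.2, at a listed 0 in V1PAKI and 16.2 FPKM in Ctrl at d16D, against 23.7 FPKM in V1PAKI and 1.07 FPKM in Ctrl at d10 (adjusted p = 0.832).

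Endoderm and liver genes were higher at d16D in all 18 genes tested in V1PAKI and in 12 of 18 in Ctrl. Over all genes tested the median change was -0.0045 in V1PAKI and 0.072 in Ctrl. In the fit to both lines 12 of the 18 were higher at an unadjusted p under 0.05 (limma). The median change was 3.39 (5.59 in V1PAKI and 1.10 in Ctrl), the widest gap between lines of any list. ALB, serum albumin, was the 1 gene that rose, at 14.5 FPKM in V1PAKI and 11.98 FPKM in Ctrl at d16D, against 0.174 FPKM in V1PAKI and 0.340 FPKM in Ctrl at d10 (log2 change 3.5, SE 0.42, adjusted p = 0.0136). It had passed the filter through d16D alone. The number of the list that rose was 1 with V1PAKI d16D left out, 1 with Ctrl d16D, 0 with V1PAKI d10 and 0 with Ctrl d10 left out, and 0 of 14 at a filter of 5 FPKM. AFP, the fetal serum protein made by yolk sac and liver, stood at 1242 FPKM in V1PAKI and 226 FPKM in Ctrl at d16D, against 16.2 FPKM in V1PAKI and 53.01 FPKM in Ctrl at d10 (adjusted p = 0.185). The endoderm factor SOX17 had 7.17 FPKM in V1PAKI and 0.575 FPKM in Ctrl at d16D, against 0.841 FPKM in V1PAKI and 5.69 FPKM in Ctrl at d10 (adjusted p = 0.991). FOXA2 had 2.70 FPKM in V1PAKI and 0.403 FPKM in Ctrl at d16D, against 0.345 FPKM in V1PAKI and 1.80 FPKM in Ctrl at d10 (adjusted p = 0.859). AFP was higher at d16D in both lines, while SOX17 and FOXA2 were higher in V1PAKI and lower in Ctrl.

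**Figure D4:**
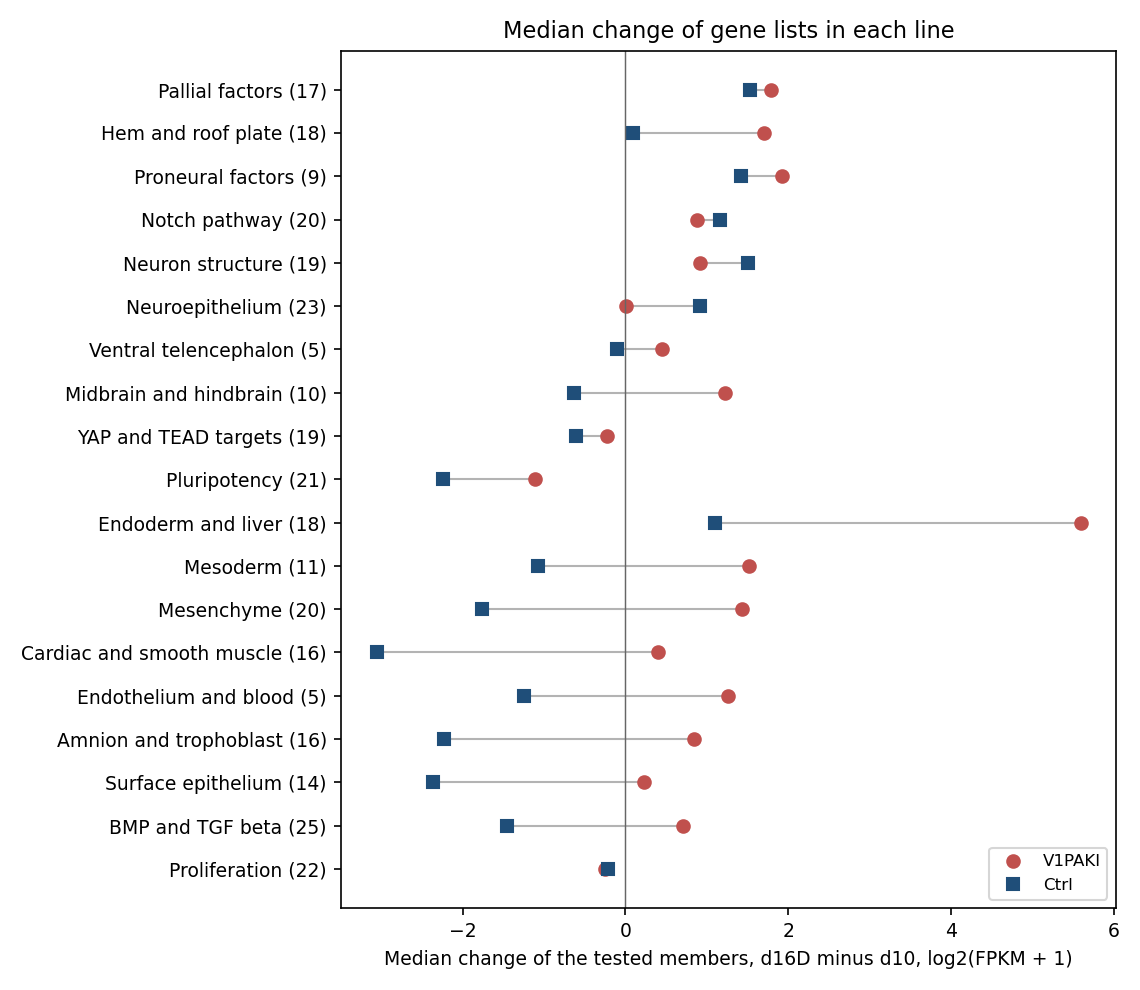
Median change of the tested members of 19 gene lists, d16D minus d10 on log2(FPKM + 1), in V1PAKI (red circles) and Ctrl (blue squares); the number tested is in brackets. The neural lists at the top lie above 0 in both lines except for the ventral and midbrain lists, which are below 0 in Ctrl, while the lists from mesoderm to BMP and TGF beta lie above 0 in V1PAKI and below 0 in Ctrl.

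Surface epithelial genes were lower in Ctrl, 14 of 14, and mixed in V1PAKI, 9 of 14 higher; the median change was -1.04 (0.22 in V1PAKI and -2.37 in Ctrl). KRT8 had 87.8 FPKM in V1PAKI and 18.5 FPKM in Ctrl at d16D, against 65.1 FPKM in V1PAKI and 221 FPKM in Ctrl at d10 (adjusted p = 0.389). KRT18 had 73.7 FPKM in V1PAKI and 13.6 FPKM in Ctrl at d16D, against 75.4 FPKM in V1PAKI and 237 FPKM in Ctrl at d10 (adjusted p = 0.273). EPCAM had 31.6 FPKM in V1PAKI and 5.73 FPKM in Ctrl at d16D, against 21.5 FPKM in V1PAKI and 37.2 FPKM in Ctrl at d10 (adjusted p = 0.581). All 3 were lower at d16D in Ctrl. Of the cadherins, CDH1 had 26.8 FPKM in V1PAKI and 5.11 FPKM in Ctrl at d16D, against 25.5 FPKM in V1PAKI and 42.4 FPKM in Ctrl at d10 (adjusted p = 0.455). CDH2, which replaces CDH1 in neural tissue, had 75.5 FPKM in V1PAKI and 102 FPKM in Ctrl at d16D, against 75.5 FPKM in V1PAKI and 40.4 FPKM in Ctrl at d10 (adjusted p = 0.354). In Ctrl CDH1 was lower and CDH2 higher at d16D, while in V1PAKI both were nearly equal on the 2 days. limma called none of the 14 epithelial genes (4 lower at an unadjusted p under 0.05) and none of 17 cadherins and adhesion molecules (6 higher and 1 lower), whose median change was 0.45 (0.38 in V1PAKI and 0.23 in Ctrl). With V1PAKI d16D left out 4 of the epithelial genes fell and 3 of the adhesion genes rose. Neural crest genes gave a median of 0.40 (0.67 in V1PAKI and -0.00091 in Ctrl) over 17, of which limma called none and 2 were higher at an unadjusted p under 0.05. Of the 17, 3 rose with Ctrl d16D left out and 1 fell with V1PAKI d16D left out. SOX10, the crest and glial factor, had 10.01 FPKM in V1PAKI and 0.557 FPKM in Ctrl at d16D, against 1.25 FPKM in V1PAKI and 0.512 FPKM in Ctrl at d10 (adjusted p = 0.440). FOXD3 had 4.17 FPKM in V1PAKI and 1.39 FPKM in Ctrl at d16D, against 1.28 FPKM in V1PAKI and 2.98 FPKM in Ctrl at d10 (adjusted p = 0.847). TFAP2A had 4.17 FPKM in V1PAKI and 1.19 FPKM in Ctrl at d16D, against 1.55 FPKM in V1PAKI and 3.47 FPKM in Ctrl at d10 (adjusted p = 0.998). At d16D all 3 were higher in V1PAKI than in Ctrl.

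In the signalling lists the direct readouts did not pass. Of the BMP and TGF beta targets, ID1 had 67.2 FPKM in V1PAKI and 41.5 FPKM in Ctrl at d16D, against 43.9 FPKM in V1PAKI and 104 FPKM in Ctrl at d10 (adjusted p = 0.826). ID3 had 68.4 FPKM in V1PAKI and 62.3 FPKM in Ctrl at d16D, against 37.3 FPKM in V1PAKI and 57.8 FPKM in Ctrl at d10 (adjusted p = 0.416). SMAD7 had 8.96 FPKM in V1PAKI and 1.89 FPKM in Ctrl at d16D, against 3.14 FPKM in V1PAKI and 9.08 FPKM in Ctrl at d10 (adjusted p = 0.876). Of these, ID3 was higher at d16D in both lines and the other two in V1PAKI. For FGF, the ligand FGF8 had 10.8 FPKM in V1PAKI and 12.7 FPKM in Ctrl at d16D, against 15.6 FPKM in V1PAKI and 17.1 FPKM in Ctrl at d10 (adjusted p = 0.347). Its feedback genes DUSP6 and SPRY2 were lower at d16D in both lines, with 7.67 FPKM in V1PAKI and 4.66 FPKM in Ctrl at d16D, against 10.4 FPKM in V1PAKI and 9.68 FPKM in Ctrl at d10 for DUSP6 (adjusted p = 0.314). SPRY2 had 15.2 FPKM in V1PAKI and 11.3 FPKM in Ctrl at d16D, against 17.2 FPKM in V1PAKI and 13.4 FPKM in Ctrl at d10 (adjusted p = 0.754). Among retinoid genes, ALDH1A1, which makes retinoic acid, had 21.6 FPKM in V1PAKI and 7.89 FPKM in Ctrl at d16D, against 0.914 FPKM in V1PAKI and 2.04 FPKM in Ctrl at d10 (adjusted p = 0.0919), higher at d16D in both lines. CYP26A1, which degrades it, had 9.07 FPKM in V1PAKI and 4.91 FPKM in Ctrl at d16D, against 16.1 FPKM in V1PAKI and 14.5 FPKM in Ctrl at d10 (adjusted p = 0.278), lower in both. RARB, a retinoid target, was below the filter, at 0.909 FPKM in V1PAKI and 0.815 FPKM in Ctrl at d16D, against 0.539 FPKM in V1PAKI and 0.720 FPKM in Ctrl at d10. limma called none of 21 FGF and 11 retinoid genes; at an unadjusted p under 0.05, 4 FGF genes were lower and 1 higher, and 4 retinoid genes were higher and 2 lower. With V1PAKI d16D left out 1 FGF gene rose and 1 fell.

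Lists of cell growth and metabolism gave no call by limma. At an unadjusted p under 0.05, 1 proliferation gene was higher and 7 were lower, 2 cholesterol genes were lower, and 5 glycolysis genes were lower. With V1PAKI d16D left out 3 glycolysis genes fell. Median changes were -0.15 (-0.25 in V1PAKI and -0.21 in Ctrl) over 22 proliferation genes and -0.11 (-0.32 in V1PAKI and -0.073 in Ctrl) over 20 cholesterol and lipid genes. MKI67 had 19.7 FPKM in V1PAKI and 30.1 FPKM in Ctrl at d16D, against 23.4 FPKM in V1PAKI and 16.6 FPKM in Ctrl at d10 (adjusted p = 0.738). TOP2A had 54.5 FPKM in V1PAKI and 94.05 FPKM in Ctrl at d16D, against 125 FPKM in V1PAKI and 46.7 FPKM in Ctrl at d10 (adjusted p = 0.941). CCNB1 had 48.5 FPKM in V1PAKI and 53.5 FPKM in Ctrl at d16D, against 95.4 FPKM in V1PAKI and 76.1 FPKM in Ctrl at d10 (adjusted p = 0.131). CCNB1 was lower at d16D in both lines, and the other two were lower in V1PAKI and higher in Ctrl. HMGCS1 had 43.4 FPKM in V1PAKI and 60.8 FPKM in Ctrl at d16D, against 61.04 FPKM in V1PAKI and 33.1 FPKM in Ctrl at d10 (adjusted p = 0.840). SQLE had 27.7 FPKM in V1PAKI and 36.8 FPKM in Ctrl at d16D, against 39.01 FPKM in V1PAKI and 31.1 FPKM in Ctrl at d10 (adjusted p = 0.830). Both were lower at d16D in V1PAKI and higher in Ctrl. The median was -0.37 (0.20 in V1PAKI and -0.97 in Ctrl) over 19 glycolysis and hypoxia genes. LDHA had 31.2 FPKM in V1PAKI and 12.7 FPKM in Ctrl at d16D, against 31.3 FPKM in V1PAKI and 46.9 FPKM in Ctrl at d10 (adjusted p = 0.317). PGK1 had 50.3 FPKM in V1PAKI and 34.6 FPKM in Ctrl at d16D, against 65.3 FPKM in V1PAKI and 68.5 FPKM in Ctrl at d10 (adjusted p = 0.173). PDK1 had 3.17 FPKM in V1PAKI and 1.43 FPKM in Ctrl at d16D, against 4.34 FPKM in V1PAKI and 3.03 FPKM in Ctrl at d10 (adjusted p = 0.331). The lines were closest for PDK1 and PGK1, and LDHA was nearly equal on both days in V1PAKI. Of the mitochondrially encoded genes all 13 had a fitted change below 0, with a median of -0.50 (-0.70 in V1PAKI and -0.26 in Ctrl), and 7 were lower at an unadjusted p under 0.05. MT-CO1 had 4506 FPKM in V1PAKI and 5380.1 FPKM in Ctrl at d16D, against 6975 FPKM in V1PAKI and 5957 FPKM in Ctrl at d10 (adjusted p = 0.340). MT-CO2 had 3086 FPKM in V1PAKI and 3171 FPKM in Ctrl at d16D, against 4655 FPKM in V1PAKI and 4164 FPKM in Ctrl at d10 (adjusted p = 0.174). MT-CO3 had 3440.3 FPKM in V1PAKI and 4091 FPKM in Ctrl at d16D, against 4279 FPKM in V1PAKI and 5824 FPKM in Ctrl at d10 (adjusted p = 0.471). Of 19 stress and immediate early genes limma called none, with 2 higher and 2 lower at an unadjusted p under 0.05, and 1 fell with V1PAKI d16D left out. FOS had 2.04 FPKM in V1PAKI and 1.09 FPKM in Ctrl at d16D, against 0.541 FPKM in V1PAKI and 1.34 FPKM in Ctrl at d10 (adjusted p = 0.644). JUN had 17.6 FPKM in V1PAKI and 15.1 FPKM in Ctrl at d16D, against 7.47 FPKM in V1PAKI and 12.1 FPKM in Ctrl at d10 (adjusted p = 0.241). EGR1 had 3.19 FPKM in V1PAKI and 2.93 FPKM in Ctrl at d16D, against 1.23 FPKM in V1PAKI and 2.58 FPKM in Ctrl at d10 (adjusted p = 0.477). JUN and EGR1 were higher at d16D in both lines, and FOS in V1PAKI.

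Regulators of splicing and chromatin whose use differs between progenitors and neurons gave no call. PTBP1, the repressor of neuronal exons, had 68.9 FPKM in V1PAKI and 62.7 FPKM in Ctrl at d16D, against 62.999 FPKM in V1PAKI and 97.6 FPKM in Ctrl at d10 (adjusted p = 0.667). Its neural relative PTBP2 had 4.06 FPKM in V1PAKI and 7.28 FPKM in Ctrl at d16D, against 7.16 FPKM in V1PAKI and 3.13 FPKM in Ctrl at d10 (adjusted p = 0.876). SRRM4, a neuronal splicing activator, was below the filter, at 0.7996 FPKM in V1PAKI and 1.91 FPKM in Ctrl at d16D, against 0.291 FPKM in V1PAKI and 0.252 FPKM in Ctrl at d10. It was higher at d16D in both lines, while PTBP1 and PTBP2 each moved oppositely in the lines. ACTL6A, the progenitor subunit of the BAF chromatin complex, had 15.8 FPKM in V1PAKI and 19.2 FPKM in Ctrl at d16D, against 22.9 FPKM in V1PAKI and 16.8 FPKM in Ctrl at d10 (adjusted p = 0.779). SS18 had 12.6 FPKM in V1PAKI and 13.8 FPKM in Ctrl at d16D, against 16.6 FPKM in V1PAKI and 14.3 FPKM in Ctrl at d10 (adjusted p = 0.646). ACTL6B, the neuronal subunit, was below the filter, at 0.519 FPKM in V1PAKI and 1.51 FPKM in Ctrl at d16D, against 0.0277 FPKM in V1PAKI and 0.205 FPKM in Ctrl at d10. limma called none of 15 splicing and 23 chromatin genes; at an unadjusted p under 0.05, 1 splicing gene was higher and 1 lower, and 5 chromatin genes were higher. With V1PAKI d16D left out 2 splicing genes rose and 1 fell.

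The 2 largest rises of all were rows of 7SL RNA, the noncoding core of the signal recognition particle. RN7SL2 stood at 3446 FPKM in V1PAKI and 3359 FPKM in Ctrl at d16D, against 11.6 FPKM in V1PAKI and 17.6 FPKM in Ctrl at d10 (log2 change 7.79, SE 0.91, adjusted p = 0.0121), and RN7SL1 at 2164 FPKM in V1PAKI and 1664 FPKM in Ctrl at d16D, against 12.5 FPKM in V1PAKI and 13.9 FPKM in Ctrl at d10 (log2 change 7.06, SE 0.73, adjusted p = 0.00796). RN7SL3, which had passed the filter through d16D alone, had 16.99 FPKM in V1PAKI and 9.47 FPKM in Ctrl at d16D, against 0.340 FPKM in V1PAKI and 0.0338 FPKM in Ctrl at d10 (log2 change 3.54, SE 0.45, adjusted p = 0.0163). RN7SL4P had 62.7 FPKM in V1PAKI and 48.2 FPKM in Ctrl at d16D, against 5.67 FPKM in V1PAKI and 4.25 FPKM in Ctrl at d10 (log2 change 3.24, SE 0.55, adjusted p = 0.0443). These are near-identical copies among which reads may be split, so single rows are uncertain. Of 12 rows of this family tested 5 rose, and together they took 2.72% of the FPKM sum in V1PAKI and 2.42% in Ctrl at d16D, against 0.0183% in V1PAKI and 0.0199% in Ctrl at d10. The share was 1.21% in V1PAKI and 2.26% in Ctrl at d16V, and from 0.0188% to 0.115% at d0 and d4. The day 16 libraries of both arms thus held more of this RNA class than all earlier ones. Whether library preparation differed between the days was not tested.

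Of the 62 genes that fell, 17 (27.4%) are annotated as pseudogenes, against 556 (3.92%) of the 14195 tested. The summed level of the 17 was 88.1 FPKM in V1PAKI and 81.3 FPKM in Ctrl at d16D, against 275 FPKM in V1PAKI and 359.6 FPKM in Ctrl at d10. AL162151.2, the largest fall of all, is a processed pseudogene, at 1.01 FPKM in V1PAKI and 0.303 FPKM in Ctrl at d16D, against 28.5 FPKM in V1PAKI and 50.3 FPKM in Ctrl at d10 (log2 change -4.59, SE 0.54, adjusted p = 0.0129). MTND1P23 and MTCO3P12 are nuclear copies of mitochondrial genes. MTND1P23 had 0.437 FPKM in V1PAKI and 0.454 FPKM in Ctrl at d16D, against 11.2 FPKM in V1PAKI and 15.2 FPKM in Ctrl at d10 (log2 change -3.29, SE 0.23, adjusted p = 0.00332). MTCO3P12 had 0.0302 FPKM in V1PAKI and a listed 0 in Ctrl at d16D, against 5.91 FPKM in V1PAKI and 5.48 FPKM in Ctrl at d10 (log2 change -2.72, SE 0.22, adjusted p = 0.00456). MTND1P23 and MTCO3P12 had passed the filter through d10 alone, so that their direction was fixed by the filter. RPL18AP3, a ribosomal protein pseudogene, had 1.42 FPKM in V1PAKI and 1.34 FPKM in Ctrl at d16D, against 8.62 FPKM in V1PAKI and 19.96 FPKM in Ctrl at d10 (log2 change -2.58, SE 0.39, adjusted p = 0.0323). All are uncertain, since reads of a parent gene can be assigned to its copy. Among protein-coding genes alone, with each library rescaled to their sum, 100 of the 113 genes called in the full table were called again.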

How the data were processed

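RNA of 10 bulk cultures was prepared with a TruSeq RNA kit, as the labels' protocols state. For 42335 gene symbols the authors deposited FPKM values. Per the submitters' processing notes, cutadapt 1.18, HISAT2 2.1.0, Cufflinks and the build GRCh38 were used. FPKM sums ranged from 210547 to 230767 in the 4 libraries; the values hold no whole-read steps, so depth is unknown and no counting interval is given. The 14195 genes that reached 1 FPKM in 2 or more of the 4 libraries were kept, log2(FPKM + 1) was taken, which understates changes of low genes, and limma 3.58.1 (R 4.3.3) fitted stage and line to all 10 libraries, with 4 residual degrees of freedom (7.755 after moderation) and Benjamini-Hochberg adjustment at 0.05. The line is the same culture line across stages, so it enters as the block. Nothing says that stages were cultured separately or in parallel, so p-values measure the spread between these libraries. Strand use in counting is not given in the sources used here. Coordinates and gene types come from GENCODE v29, sequences from RefSeq. Members, lists and tests were chosen with earlier results of these data known. Named genes were the 15 largest rises and falls, the first 3 and up to 6 called genes of each list, the 8 most opposed genes each way, and the genes of the study's title; others are marked, and a few genes that the rule names are not reported here. The fit was tested on simulated data. Alternatives covered pseudocount, scaling, filter, block, GC and length, libraries in the fit, and each library left out. The restriction to protein-coding genes was added after seeing the data. It also rescaled each library to the sum of those genes, without the mitochondrially encoded ones.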

Additional observations from a re-analysis of the deposited data

Results flagged for a closer look

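In 6 lists the median change was well above 0 in V1PAKI and well below 0 in Ctrl, though members went both ways in each line of most lists. Other lists were opposed in the same sense with a median closer to 0 in at least 1 line. Among them were the cardiac and smooth muscle list (0.40 in V1PAKI and -3.06 in Ctrl) and the surface epithelium list (0.22 in V1PAKI and -2.37 in Ctrl). These differences were not tested, with 1 library per line and stage. For the 6 lists, on log2(FPKM + 1), the median of V1PAKI minus that of Ctrl was 3.18 for the mesenchyme list, 3.07 for the amnion and trophoblast list, 2.59 for the mesoderm list, 2.51 for the endothelium and blood list, 2.16 for the BMP and TGF beta list and 1.85 for the midbrain and hindbrain list. Genes higher at d16D numbered 18 in V1PAKI and 1 in Ctrl of 20 mesenchyme genes, 12 and 2 of 16 amnion and trophoblast genes, 11 and 2 of 11 mesoderm genes, 5 and 2 of 5 endothelium and blood genes, 17 and 5 of 25 BMP and TGF beta genes, and 7 and 3 of 10 midbrain and hindbrain genes. Over all genes tested the median change was -0.0045 in V1PAKI and 0.072 in Ctrl.

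Single genes showed the same kind of gap. The change in V1PAKI minus that in Ctrl was 6.25 for HAND1, 5.9 for CST1, 5.85 for IGF2, 5.55 for COL6A2, 5.42 for PITX1, 5.41 for MFAP4, 5.39 for H19 and 5.37 for TMEM88. In the reverse sense it was -7.68 for AC087721.2, -3.8 for CAPN6, -3.68 for AC011603.2, -3.13 for FEZF1-AS1, -3.08 for SNRPGP10, -3.08 for RPL17-C18orf32, -2.8 for PTPRZ1 and -2.77 for SHISA2. The rule that named most of these genes chose them for this gap, so their values are a description.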

How the results depend on the processing

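The 150 genes called kept their direction in every alternative in which they were tested, while their number did not hold. The other filters, the 4 libraries fitted alone and the fit without the block leave each fitted change as it was. Direction could therefore not turn in those alternatives. Elsewhere a kept direction is a description, since the test favoured genes whose lines moved alike. With a pseudocount of 0.1, 88 genes were called (45 higher), 541 moved at least 1 log2 unit up in both lines, 258 down in both and 553 in opposite directions. Rescaling to TPM moved these last 3 counts to 545, 217 and 486. A filter at 5 FPKM left 44 calls (18 higher, 26 lower) and counts of 132, 87 and 155, with 7509 genes tested. No filter left 37 (25 higher, 12 lower) among 38159 genes. The 4 libraries fitted alone gave 57 (36 higher, 21 lower). Without the replicate block for line 262 were called (141 higher, 121 lower), 145 of them among the 150; with a GC and length trend removed 351 (153 higher, 198 lower). Protein-coding genes alone, with each library rescaled to their sum, gave 33 lower, and 77 at least 1 log2 unit lower in both lines. That restriction was chosen after seeing the data. Leaving out 1 library gave from 29 to 340 calls, from 10 to 195 higher and from 12 to 145 lower; the library left alone at its stage is then assumed to vary like the others. The cause of these shifts was not tested. Of 62 named genes called, 54 were called again with V1PAKI d16D left out, 40 with Ctrl d16D, 14 with V1PAKI d10 and 15 with Ctrl d10 left out. The median change of all genes was 0.095 after rescaling to TPM. Median-of-ratios scaling gave 152 calls. Sequencing depth is unknown, which limits what low values can show.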

Other observations

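The genes given here lie outside the naming rule and were picked after their values were seen. Among transcription factors, RFX4, a regulator of ciliogenesis in neural tube, stood at 2.82 FPKM in V1PAKI and 3.17 FPKM in Ctrl at d16D, against 0.120 FPKM in V1PAKI and 0.105 FPKM in Ctrl at d10 (log2 change 1.84, SE 0.20, adjusted p = 0.0107). BARHL1, a homeobox factor of the midline and diencephalon, stood at 4.64 FPKM in V1PAKI and 2.27 FPKM in Ctrl at d16D, against 0.111 FPKM in V1PAKI and 0.0249 FPKM in Ctrl at d10 (log2 change 2.01, SE 0.33, adjusted p = 0.0425). Both rose. They had passed the filter through d16D alone, so that their direction and the lack of overlap between days were fixed by the filter. EMX2OS, transcribed opposite to EMX2 and not told apart from it without strand, stood at 6.36 FPKM in V1PAKI and 17.6 FPKM in Ctrl at d16D, against 0.416 FPKM in V1PAKI and 0.624 FPKM in Ctrl at d10 (log2 change 2.95, SE 0.34, adjusted p = 0.0112). DNER, a neuronal transmembrane protein with EGF repeats, stood at 4.43 FPKM in V1PAKI and 13.2 FPKM in Ctrl at d16D, against 0.772 FPKM in V1PAKI and 0.479 FPKM in Ctrl at d10 (log2 change 2.44, SE 0.40, adjusted p = 0.0406). GPM6A, a neuronal membrane glycoprotein, stood at 3.40 FPKM in V1PAKI and 8.88 FPKM in Ctrl at d16D, against 0.579 FPKM in V1PAKI and 0.375 FPKM in Ctrl at d10 (log2 change 2.16, SE 0.33, adjusted p = 0.0342). These 3 rose as well, and reached higher levels at d16D in Ctrl than in V1PAKI. All 3 had passed the filter through d16D alone.

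Genes of matrix, junctions and immune defence moved both ways. COL4A5, a basement membrane collagen, rose, with 36.1 FPKM in V1PAKI and 38.99 FPKM in Ctrl at d16D, against 16.4 FPKM in V1PAKI and 19.1 FPKM in Ctrl at d10 (log2 change 1.04, SE 0.18, adjusted p = 0.0440). COL4A6, its neighbour on the X chromosome, rose with it, at 52.4 FPKM in V1PAKI and 53.7 FPKM in Ctrl at d16D, against 16.02 FPKM in V1PAKI and 20.8 FPKM in Ctrl at d10 (log2 change 1.49, SE 0.21, adjusted p = 0.0221). In both collagens the lines were nearly equal on each day. PTX3, a secreted pattern recognition protein, had 10.3 FPKM in V1PAKI and 12.4 FPKM in Ctrl at d16D, against 1.67 FPKM in V1PAKI and 1.23 FPKM in Ctrl at d10 (log2 change 2.33, SE 0.21, adjusted p = 0.00527). CLDN1, of tight junctions, had 6.38 FPKM in V1PAKI and 6.15 FPKM in Ctrl at d16D, against 1.47 FPKM in V1PAKI and 1.44 FPKM in Ctrl at d10 (log2 change 1.56, SE 0.25, adjusted p = 0.0378). VCAM1, an adhesion molecule, had 2.36 FPKM in V1PAKI and 2.23 FPKM in Ctrl at d16D, against 0.0972 FPKM in V1PAKI and 0.178 FPKM in Ctrl at d10 (log2 change 1.54, SE 0.20, adjusted p = 0.0176). All 3 rose, again by like amounts in both lines, and VCAM1 had passed the filter through d16D alone. EDN1, the vasoconstrictor peptide endothelin, fell, with 0.881 FPKM in V1PAKI and 0.480 FPKM in Ctrl at d16D, against 4.64 FPKM in V1PAKI and 6.03 FPKM in Ctrl at d10 (log2 change -1.92, SE 0.23, adjusted p = 0.0129). IDO1, an enzyme of tryptophan breakdown, fell, with 0.102 FPKM in V1PAKI and 0.0820 FPKM in Ctrl at d16D, against 2.75 FPKM in V1PAKI and 3.98 FPKM in Ctrl at d10 (log2 change -1.98, SE 0.27, adjusted p = 0.0197). ACTC1, cardiac actin, had 14.9 FPKM in V1PAKI and 1.59 FPKM in Ctrl at d16D, against 137 FPKM in V1PAKI and 237 FPKM in Ctrl at d10 and missed the threshold (adjusted p = 0.0563). Both d10 libraries were the higher ones in these 3 genes. EDN1 and IDO1 had passed the filter through d10 alone, so that their direction was fixed by the filter.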
